A study of Mus musculus with 4 samples.

Results

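The 14012 genes described here are those that were measured in both saline kidneys of the study, out of 38924 genes listed in the deposited tables. A gene was taken when its model had at least 1 exon and at least 20 reads in each of the 2 saline libraries, and the genes were ranked by their mean RPKM over both libraries. RPKM counts the exon reads of a gene, scaled to the length of its exons and to the total of reads counted in genes in that library, so it compares levels between genes of different length. The levels therefore chose and ordered the genes, and they are given as a description. The study compared kidneys of female CB-17 SCID mice, on a Balb/c background, after tail vein injections of saline or of complexes (IgG-Gd-IgA1) that join IgG to IgA1 lacking galactose, the kind of IgA1 known from IgA nephropathy. The 2 saline kidneys used here received 3 doses of saline over 7 days, and a piece of kidney was kept for RNA. The SCID mutation, which blocks the formation of B and T lymphocytes, is shared by all animals of the study. The sources used here do not give the age of the mice, and the labels do not say that each library came from its own animal. The 2 immune complex libraries were not used. Both libraries belong to 1 group, so no test was made, and every difference below is 1 library against 1 library.

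The kidney filters plasma in glomeruli, whose podocytes form the slit of the filter, and then recovers most of the filtrate along the nephron. The proximal tubule does the bulk of that work, with sodium-coupled transporters on its brush border, a sodium pump at its base and many mitochondria that burn fatty acids. The loop of Henle, the distal tubule and the collecting duct then dilute and concentrate the urine and set its final salt, water and acid content. The papilla at the tip of the medulla is hyperosmotic, and its cells make organic osmolytes and move urea.

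Depth was 19675879 reads counted in genes in saline 1 and 20950134 in saline 2. Reads placed at 1 location only made up 84.2% and 84.0% of them, and intron reads 8.29% and 8.90%. The 14012 genes held 98.95% and 98.8% of all counted reads. Intron reads count toward the minimum of 20 reads, and 225 of the genes had 0 RPKM in at least 1 library. Of the genes left out, 10609 had no exon in the tables, 13562 had exons but under 20 reads in both libraries, 506 were under 20 reads in saline 1 only and 235 in saline 2 only. At the edge of the rule, Cdt1 with 20 and 23 reads (0.464 and 0.502 RPKM) and Zfp296 with 20 and 23 reads (0.664 and 0.718 RPKM) were just inside. Hk2 with 19 and 80 reads (0.162 and 0.584 RPKM) and Kdelr3 with 19 and 26 reads (0.611 and 0.743 RPKM) were just outside. By the GENCODE M21 annotation, 13158 of the genes were protein coding, 610 noncoding RNAs and 142 pseudogenes, and 100 had an identifier that is not in that release. Values are given below in the order saline 1, then saline 2.

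A pair of sequence sets from abundant genes is shown. The first is mt-Nd4l, which encodes a small subunit of respiratory complex I in the mitochondrial genome, and Gm10222, an unprocessed pseudogene in the nuclear genome (GRCm38, chromosome 1, 24612404 to 24612700). They are shown because they ranked next to each other, at 16 and 17, and because reads could not be told apart between them. In the GENCODE M21 transcripts, the 294 bases of Gm10222 and the first 294 of the 297 bases of mt-Nd4l had 0 differing positions. The capitals mark the 3 last bases of mt-Nd4l, which the Gm10222 transcript lacks. The gene models that were counted had an exon length of 297 bases for both genes.
mt-Nd4l: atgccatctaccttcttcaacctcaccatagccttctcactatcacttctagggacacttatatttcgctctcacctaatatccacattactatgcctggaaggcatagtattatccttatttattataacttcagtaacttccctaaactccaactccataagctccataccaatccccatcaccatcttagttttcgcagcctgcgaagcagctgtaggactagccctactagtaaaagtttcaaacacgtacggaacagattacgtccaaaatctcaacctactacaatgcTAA
Gm10222: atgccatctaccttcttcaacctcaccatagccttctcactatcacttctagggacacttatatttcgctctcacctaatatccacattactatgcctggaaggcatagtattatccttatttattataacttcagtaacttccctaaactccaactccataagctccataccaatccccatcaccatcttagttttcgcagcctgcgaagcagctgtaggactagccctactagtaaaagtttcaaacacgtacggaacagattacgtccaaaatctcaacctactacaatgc
The second set is the promoters of Kap and Acy3, both abundant in proximal tubule (Kap encodes the kidney androgen-regulated protein and Acy3 an aminoacylase). They are shown as examples of the motif counts given further on, with a TATA box sequence in capitals, 31 bases before the start of Kap and 30 before that of Acy3, in the RefSeq windows of 250 bases before to 50 bases after the start (GRCm38.p6, Kap on the minus strand at chr6:133853618-133853917 and Acy3 on the plus strand at chr19:3986320-3986619).
Kap: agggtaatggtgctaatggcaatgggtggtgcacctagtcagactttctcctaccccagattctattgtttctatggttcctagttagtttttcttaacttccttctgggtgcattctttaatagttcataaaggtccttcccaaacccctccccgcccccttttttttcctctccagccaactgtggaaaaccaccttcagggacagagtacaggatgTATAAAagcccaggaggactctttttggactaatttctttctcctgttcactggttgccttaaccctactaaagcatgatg
Acy3: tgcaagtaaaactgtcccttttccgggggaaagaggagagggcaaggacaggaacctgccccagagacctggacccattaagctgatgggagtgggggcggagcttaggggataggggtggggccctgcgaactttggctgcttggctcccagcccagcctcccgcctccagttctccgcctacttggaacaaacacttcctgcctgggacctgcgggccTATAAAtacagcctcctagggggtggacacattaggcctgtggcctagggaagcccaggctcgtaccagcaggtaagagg

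A few genes held much of the RNA. The 10 genes with the highest mean RPKM held 29.8% and 32.7% of the summed RPKM of all 14012 genes (31.2% ± 2.11, SD, n = 2). The first 100 held 50.01% and 53.1% (51.6% ± 2.20), and the first 1000 held 74.3% and 76.5% (75.4% ± 1.55). Ranked by the mean, 100 genes were needed to reach 50% of the sum in saline 1 and 66 in saline 2. By reads instead of RPKM, where long genes weigh more, the same 10 genes held 13.0% and 14.8% and the same 100 genes 25.9% and 27.9%. Of the 100 first genes, 64 were also among the first 100 by exon CPM, which scales reads to the library total and does not divide by length. The first 100 of saline 1 alone and of saline 2 alone shared 95 genes.

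**Figure D1:**
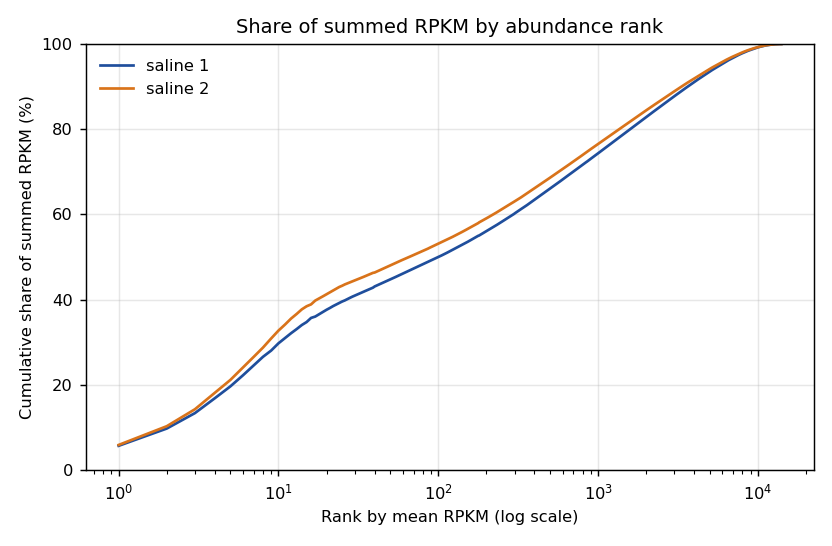
Cumulative share of the summed RPKM of the 14012 genes (vertical axis, percent) against their rank by mean RPKM (horizontal axis, log scale), with 1 line for each saline library. The first 100 genes reach 50.01% in saline 1 and 53.1% in saline 2, and the saline 2 line lies above the saline 1 line at ranks 10, 100 and 1000.

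By level, 30 genes had a mean of at least 1000 RPKM and held 40.9% and 44.5% of the sum. Another 467 genes between 100 and 1000 RPKM held 25.03% and 24.05%, and 4065 genes between 10 and 100 RPKM held 26.6% and 24.7%. The 6969 genes between 1 and 10 RPKM held 7.20% and 6.51%, and the 2481 genes under 1 RPKM held 0.255% and 0.237%. The share of reads in introns, which count toward the read minimum but not toward RPKM, was 0.041% in the median gene of the highest class and 28.8% in that of the lowest. The median exon length was 1092.5 bases in the highest class and 4238 bases in the lowest. Both follow in part from how RPKM is built.

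Messages of the mitochondrial genome led the ranking. All 13 mitochondrially encoded proteins were among the first 16 genes, and together they held 30.9% and 33.1% of the summed RPKM. The first was mt-Co1, the catalytic subunit of cytochrome oxidase, at 24479 and 26398 RPKM, followed by mt-Co2 of the same complex at 17366 and 19651 RPKM. Reads placed at 1 location were 67.9% of those of mt-Co1 and 65.6% of those of mt-Co2, so part of their level is uncertain. The ATP synthase subunit mt-Atp6 stood at 15527 and 17769 RPKM, mt-Co3 at 15017 and 17376 RPKM and mt-Cytb, the cytochrome b of complex III, at 11883 and 13394 RPKM. The subunits of complex I were lower, and apart from mt-Nd4l they ran from mt-Nd1 at 8549.5 and 9724 RPKM to mt-Nd3 at 4068 and 4795 RPKM. Of the 13, 12 were higher in saline 2, and mt-Nd4l was not.

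For mt-Nd4l the tables list 4147 and 1994 RPKM on 24236 and 12407 reads, and for the identical stretch of Gm10222 they list 1396 and 4007 RPKM on 8157 and 24932 reads. Saline 1 is the higher library for the first and saline 2 for the second. Reads placed at 1 location were 0.00819% of the reads of mt-Nd4l and 0.00907% of those of Gm10222. Taken as a sum, the pair had 32393 and 37339 reads and 5543 and 6001 RPKM, a log2 difference of 0.11, which is within the 0.11 to 0.37 of the other 12 mitochondrial genes. The share of the pair's reads listed under mt-Nd4l was 74.8% in saline 1 and 33.2% in saline 2, so the split of reads between the 2 genes is uncertain and their single values are not interpreted.

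Among nuclear genes, redox and iron-storage proteins and secreted proteins were at the top. Gpx3, the glutathione peroxidase that kidney tubules secrete into plasma (GRCm38, chromosome 11, 54902453 to 54910377), was the first nuclear gene, at rank 6 with 11218 and 13100.5 RPKM. Kap (chromosome 6, 133849855 to 133853667) was at rank 9 with 6301 and 9565 RPKM, and the ferritin chains Fth1 and Ftl1, which store iron, stood at 2999 and 3246 RPKM and 1605 and 1898 RPKM. Umod, the urinary glycoprotein uromodulin of the thick ascending limb, had 2388 and 2249 RPKM, and Klk1, the tissue kallikrein of the connecting tubule, had 2309 and 2242 RPKM. Both of these were close to equal in the 2 libraries, whereas Kap was 1.52-fold higher in saline 2. Reads placed at 1 location made up 14.8% of the reads of Ftl1 and 64.5% of those of Klk1, so the split of these reads with related genes is uncertain.

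Grouped by known function, with classes assigned after the ranking was seen, the first 100 genes held 13 mitochondrially encoded proteins, 15 nuclear genes of the respiratory chain, ATP synthase and ADP/ATP exchange, and 14 metabolic enzymes. Another 11 served translation, 9 were secreted proteins or growth factor precursors, 8 served membrane transport, 7 redox and iron storage and 4 the lysosome, and 19 had other functions. The 15 nuclear respiratory genes held 2.07% and 2.03% of the summed RPKM, while the 7 redox and iron genes held 4.34% and 4.69% and the 9 secreted proteins 3.63% and 4.14%. Metabolic enzymes held 2.30% and 2.41%, and translation 1.58% and 1.49%. Membrane transport held 1.97% and 1.56%, and its member Aqp2 is described with the collecting duct.

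**Figure D2:**
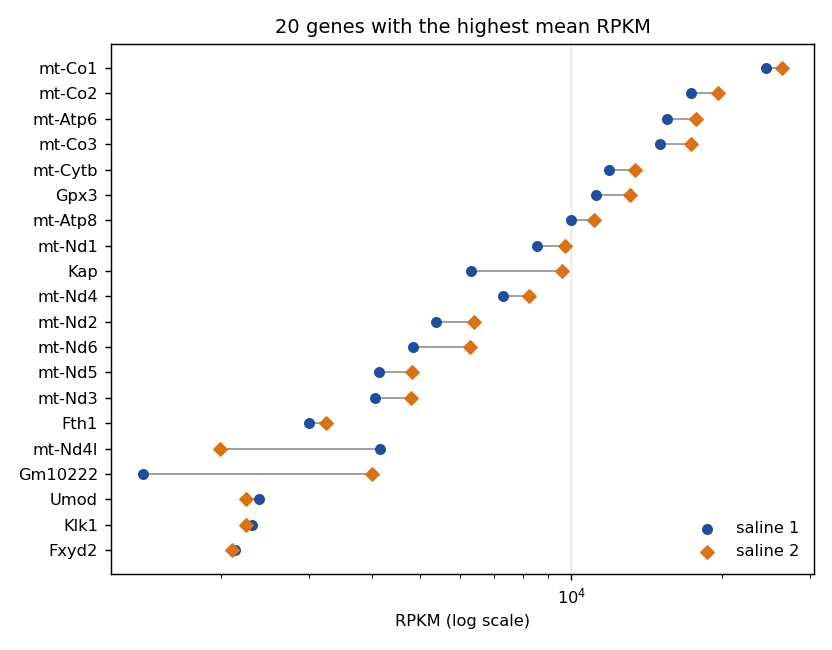
RPKM of the 20 genes with the highest mean RPKM (horizontal axis, log scale), with saline 1 as blue circles and saline 2 as orange diamonds joined by a grey line. The 5 first genes are mitochondrially encoded, Gpx3 is the first nuclear gene, and mt-Nd4l and Gm10222 show the widest gaps, in opposite directions.

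Gene structure in the first 100 genes is given as a description, since exon length divides RPKM and intron reads do not enter it. Their median share of intron reads was 0.370%, against 4.49% for all 14012 genes, and their median exon length was 1359 bases, against 3670 bases. The median gene had 6 exons in the first 100 and 15 in all. Genes with fewer than 50% of reads placed at 1 location made up 22 of the first 100 and 12.2% of all. The median absolute log2 difference between the libraries was 0.090 in the first 100 and 0.15 in all.

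Promoters in the RefSeq table were matched by symbol for 76 of the 100 most abundant nuclear genes (92 windows). The letters TATAAA on the sense strand, starting 40 to 20 bases before the start, were found in 4 of those 92 windows (4.35%), those of Kap, Miox, Sod1 and Acy3. The same was found in 1.18% of the 13097 windows of all nuclear genes described here and in 1.99% of the 32851 windows of the whole table. Anywhere in the window, TATAAA was in 9.78%, 4.34% and 8.32% of the windows in that order. CAAAGTCCA, known for HNF4A and searched on both strands, was in 2.17%, 0.405% and 0.475%, and the 2 abundant genes with it were Aadat and Pdzk1. TATAAA and CAAAGTCCA do not contain each other, and a match describes letters in a window, not a bound site.

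The proximal tubule held the largest summed level of the nephron lists. The lists hold different numbers of genes and these genes differ in level, so their sums describe RNA of the listed genes and are not shares of cells. In a bulk library, fewer cells of a type and less RNA per cell cannot be told apart. All 24 listed genes of the whole proximal tubule were measured, with 27947 and 33485 RPKM or 6.51% and 7.49% of the sum, and 13 of them were among the first 100 genes. Gpx3 and Kap, which are not limited to 1 function of the tubule, made up most of this, and the other 22 genes summed to 10428 and 10820 RPKM. Slc34a1, the main phosphate transporter of the brush border, stood at 1043 and 938 RPKM, and Miox, which breaks down inositol, at 977 and 1011 RPKM. The endocytic receptor megalin, Lrp2, had 116 and 128 RPKM, and the water channel Aqp1 had 478 and 423 RPKM. Pck1, the entry enzyme of gluconeogenesis, had 1139.9 and 1411 RPKM.

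Segments of the proximal tubule were lower in sum. The 8 genes of the early segments, S1 and S2, summed to 597 and 583 RPKM, led by the organic anion transporter Slc22a8 at 178 and 183 RPKM and the glucose transporter Slc5a2 at 134 and 143 RPKM. The 7 genes of the straight segment S3 summed to 455 and 607 RPKM. Slc6a18, a glycine transporter, had 177 and 230.4 RPKM, Slc22a7 had 116 and 158 RPKM and the amino acid transporter Slc7a12 had 83.9 and 117 RPKM. All 7 of the S3 genes were higher in saline 2, with a median log2 difference of 0.38, while the S1 and S2 genes split 4 and 4 with a median of -0.018. Over all 14012 genes the median was -0.06, and 37.2% of genes were higher and 61.8% lower in saline 2, with the rest equal. With TMM and DESeq2 scaling of total reads, 52.1% and 49.5% of all genes were lower in saline 2. Slc7a13 was the lowest of the S3 genes, at 0.570 and 0.624 RPKM.

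Podocyte genes had low levels. The 10 podocyte genes were all measured and summed to 121 and 109.7 RPKM. Podxl, the sialomucin of the podocyte surface, had 36.6 and 34.01 RPKM, and the slit protein nephrin, Nphs1, had 4.79 and 5.08 RPKM. None of the 10 was past 2-fold between the libraries, a limit that 319 of all 14012 genes (2.28%) passed. Renin, Ren1, made by juxtaglomerular cells of the arteriole, had 51.3 and 39.8 RPKM. The 4 macula densa genes summed to 4.43 and 3.496 RPKM, of which Avpr1a, a vasopressin receptor at rank 8525, made up 81.6% and 83.8%, and the other 3 ranked between 12684 and 13593 of 14012.

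The thick ascending limb and the distal convoluted and connecting tubule had sums close to each other on the RPKM scale, with mean shares of 0.816% and 0.833%. By CPM of exon reads, which does not divide by length, the shares were 1.18% and 0.514%. The 11 genes of the thick limb summed to 3755 and 3386 RPKM, of which Umod made up 63.6% and 66.4%. Egf, the precursor of epidermal growth factor, had 531 and 425 RPKM, and Slc12a1, the cotransporter blocked by loop diuretics, had 301 and 263 RPKM. All 11 were lower in saline 2, as were 61.8% of all 14012 genes. The 11 had a median log2 difference of -0.24, and the widest was -0.65 for Bsnd, the barttin subunit of chloride channels. The 13 distal genes summed to 3721 and 3573 RPKM, of which Klk1 made up 62.1% and 62.7%. S100g, a calcium-binding protein of the connecting tubule, had 818 and 813 RPKM, and Slc12a3, the thiazide-sensitive cotransporter, had 128 and 115 RPKM. Of the 13, 11 were lower in saline 2, against the same 61.8% of all genes, and none was past 2-fold. With TMM scaling of total reads all 11 thick limb genes and 8 of the 13 distal genes were lower, against 52.1% of all genes.

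Principal cells of the collecting duct differed more between the libraries. All 11 listed genes were lower in saline 2, as were 61.8% of all 14012 genes. Of the 11, 4 were past 2-fold, which 1.52% of all genes were in this direction (213 genes). Aqp2, the water channel set by vasopressin (GRCm38, chromosome 15, 99579056 to 99584545), had 1238 and 386 RPKM, the largest difference of the list, and was 3.21-fold (3.14 to 3.28) higher in saline 1 with its 95% exact Clopper-Pearson interval from exon reads. Such intervals cover counting error only and say nothing of the spread between kidneys. The vasopressin receptor Avpr2 had 1.85 and 0.595 RPKM, the factor Elf5 4.004 and 1.49 RPKM and the basolateral water channel Aqp4 41.1 and 19.5 RPKM. The sodium channel subunit Scnn1b had 21.4 and 17.8 RPKM and the steroid enzyme Hsd11b2 147 and 119 RPKM, both within 2-fold. The list summed to 1667 and 694 RPKM, and to 429 and 309 RPKM without Aqp2. The 14 genes of intercalated cells, which move acid and base in the same duct, summed to 283 and 235 RPKM with none past 2-fold. Among them the ammonia channel Rhcg had 56.4 and 46.3 RPKM and Aqp6 48.8 and 37.8 RPKM.

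Genes known from the inner medulla also differed between the libraries. The 7 thin limb genes summed to 444 and 189.8 RPKM, with 2 of 7 past 2-fold and lower in saline 2, as were 1.52% of all 14012 genes. Cryab, a small heat shock protein abundant in the inner medulla, had 317 and 116 RPKM. It made up 71.4% and 61.2% of the sum, and the other thin limb genes summed to 127 and 73.5 RPKM. Slc14a2, a urea transporter of the inner medulla, had 28.8 and 6.11 RPKM, a difference of 4.71-fold (4.23 to 5.26) toward saline 1. Of the osmolyte and urea list, 6 of 7 genes were measured, with a median log2 difference of -0.74, and Slc14a2 belongs to this list too. Akr1b3, the aldose reductase that makes sorbitol, had 71.4 and 10.2 RPKM on 5703 and 874 reads, while the taurine transporter Slc6a6 was nearly equal at 55.8 and 56.5 RPKM. Only 8.61% of the reads of Akr1b3 were placed at 1 location. On uniquely placed reads alone it had 449 and 117 reads, and its log2 difference was -1.98 instead of -2.80. In GENCODE M21, 7 pseudogenes share a stretch of 50 bases with its transcripts, and the 3 of them that are listed had 121 and 30 reads together, fewer in saline 2 as well.

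**Figure D3:**
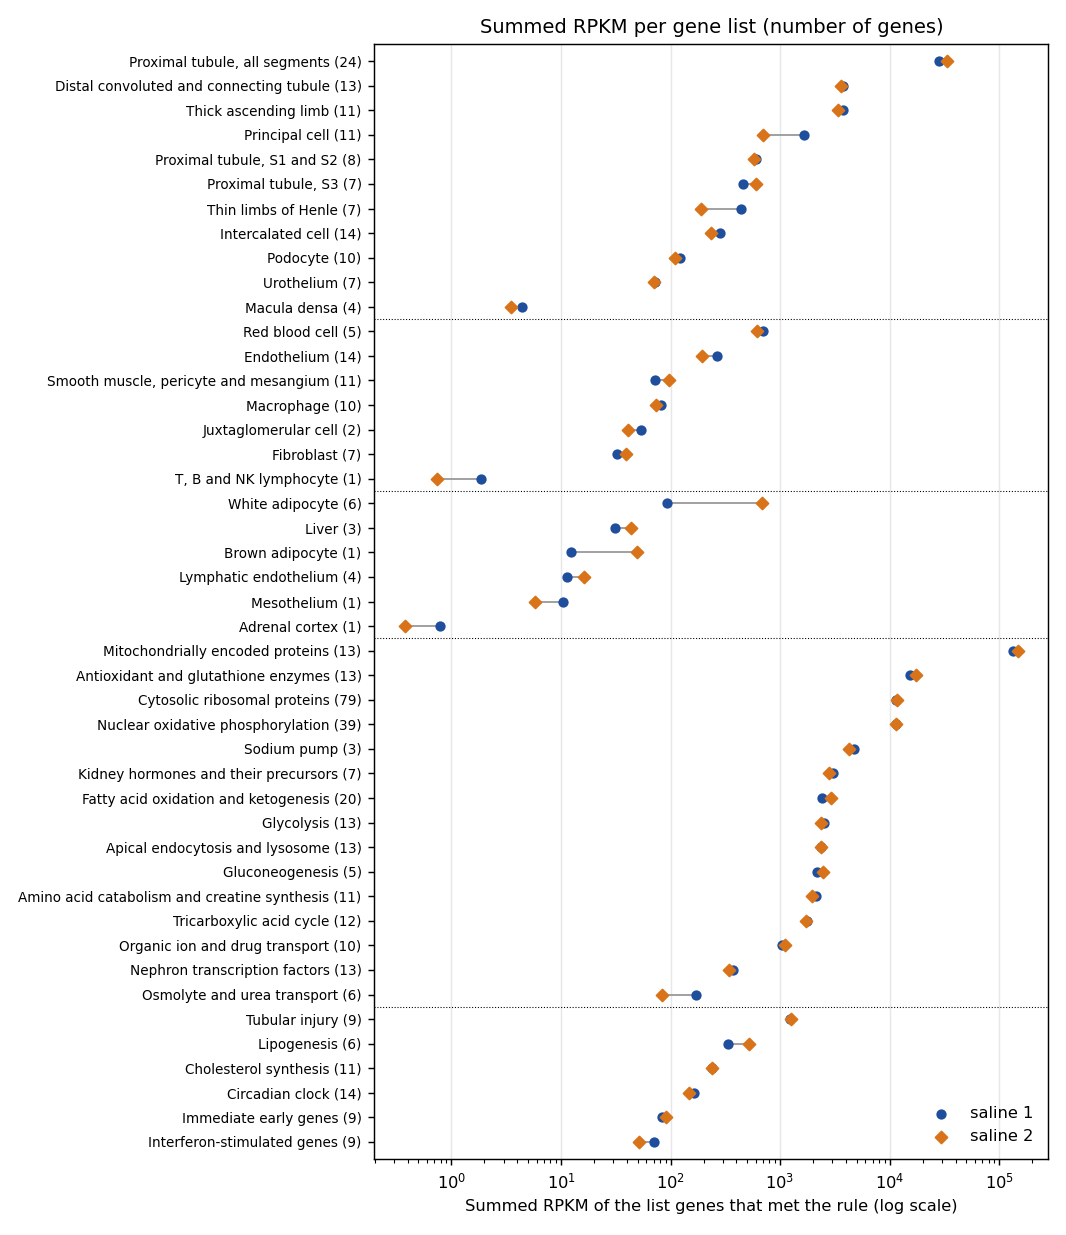
Summed RPKM of the measured genes of each list (horizontal axis, log scale), with the number of genes in brackets, saline 1 as blue circles and saline 2 as orange diamonds. Dotted lines separate nephron segments, other kidney cells, other tissues, functions and states; white adipocyte, principal cell, thin limb and osmolyte lists show wide gaps, and for the thick limb the 2 libraries lie close together.

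By function, redox enzymes, ribosomal proteins and nuclear respiratory genes had the largest sums after the mitochondrial genome. The 13 antioxidant and glutathione genes summed to 15446 and 17376 RPKM, of which Gpx3 made up 72.6% and 75.4%. Gpx1, the cytosolic peroxidase, had 1189 and 1029.8 RPKM, and the superoxide dismutase Sod1 had 648 and 699 RPKM. The 79 cytosolic ribosomal proteins summed to 11529.5 and 11726 RPKM, with Rplp1 of the ribosomal stalk the highest at 772 and 809 RPKM. Reads placed at 1 location were 38.1% of those of Rplp1. The 39 nuclear genes of oxidative phosphorylation summed to 11320.3 and 11542 RPKM, led by Cox8a at 928 and 944 RPKM, Cox6a1 at 857 and 897 RPKM and Ndufa4 at 774 and 856 RPKM. Their median log2 difference was 0.005 and none was past 2-fold. Of the 39, 21 (53.8%) were higher in saline 2, against 37.2% of all 14012 genes. With TMM scaling of total reads 27 (69.2%) were higher, against 47.9% of all. Of the 13 mitochondrially encoded messages, 12 were higher in saline 2, and their median log2 difference was 0.19.

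Fuel pathways had sums between 1717 and 2931 RPKM. Fatty acid oxidation and ketogenesis summed to 2427 and 2931 RPKM over 20 genes, glycolysis to 2493 and 2373 RPKM over 13, gluconeogenesis to 2151 and 2486 RPKM over 5 and the tricarboxylic acid cycle to 1757 and 1717 RPKM over 12. Of the 20 fatty acid genes, 18 were higher in saline 2, against 37.2% of all genes. Acadm, the medium-chain dehydrogenase, had 324 and 464 RPKM, and Etfb, which takes up electrons from these dehydrogenases, had 375 and 438 RPKM. In glycolysis Ldhb, the heart-type lactate dehydrogenase, was the highest at 799.5 and 765 RPKM, followed by Aldoa at 315 and 300.3 RPKM. Gapdh was listed at 1.21 and 1.06 RPKM on 84 and 89 reads only. Its transcripts share 50-base stretches with 215 GENCODE M21 pseudogenes, of which 189 are listed, with 3184 and 3465 reads in all, so its listed level is uncertain.

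Transport and hormone lists followed. The sodium pump genes Fxyd2 and Atp1b1 had 2130.1 and 2108 RPKM and 1217 and 1012 RPKM, neither past 2-fold. Atp1b1 was lower in saline 2, and Fxyd2 was close to equal, at 0.990-fold (0.973 to 1.006) in saline 2 over saline 1. The 13 genes of apical endocytosis and the lysosome summed to 2365 and 2364 RPKM, with Lamp1 at 521 and 515 RPKM and Psap, the precursor of lysosomal activators, at 477 and 465 RPKM. Of 11 organic ion and drug transporters 10 were measured, with a sum of 1041 and 1115 RPKM, and the urate transporter Slc22a12 was the highest at 241 and 289.9 RPKM. Slco1a1, which is known in mouse kidney mainly from males, had 3 and 2 reads. Amino acid breakdown and creatine synthesis summed to 2108 and 1964 RPKM, with Ass1, which makes argininosuccinate, at 849 and 795 RPKM. Reads placed at 1 location were 25.7% of those of Ass1. Of the 7 genes in the list of hormones and their precursors, Klk1, which is not itself a hormone, made up 76.3% and 79.6% of the sum. Without Klk1 the sum was 715 and 576 RPKM. Kl, the klotho receptor partner for phosphate control, had 128 and 106 RPKM. Epo, the erythropoietin gene, had 1390 and 1557 reads but 0.594 and 0.670 RPKM, since 99.3% of its reads fell in introns. In all, 495 of the 14012 genes (3.53%) had at least 90% of their reads in introns, so their RPKM rests on few exon reads.

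Other cell types of the kidney were checked by their markers. The 14 endothelial genes summed to 267 and 196 RPKM, led by Plvap of fenestrated capillaries at 117 and 71.7 RPKM, with Pecam1 at 17.8 and 13.1 RPKM. Of the 14, 12 were lower in saline 2, against 61.8% of all genes, and 1, Vwf, was past 2-fold at 0.927 and 0.404 RPKM. Smooth muscle, pericyte and mesangial genes summed to 72.6 and 97.8 RPKM over 11 of 12 genes, and 8 of the 11 were higher in saline 2, against 37.2% of all genes. They were led by Myl9 at 22.5 and 28.1 RPKM and Acta2, the smooth muscle actin, at 11.6 and 18.1 RPKM. The 7 of 8 measured fibroblast genes summed to 32.6 and 38.9 RPKM and went both ways. Dpt had 0.808 and 2.48 RPKM, Dcn 5.02 and 12.1 RPKM, Col1a1 1.77 and 2.85 RPKM and Pdgfra 6.84 and 3.36 RPKM. Macrophage genes summed to 81.7 and 73.6 RPKM over 10 of 11 genes, led by Lyz2 at 22.6 and 16.4 RPKM and Csf1r at 16.7 and 20.1 RPKM. Red cell genes, led by Hbb-bs at 271 and 225 RPKM, summed to 704 and 615 RPKM over 5 of 6 genes, and the globin copies share reads. Lymphocyte genes were close to absent: 1 of 12 met the rule (Cd79b with 53 and 23 reads), and Cd3d, Cd3e, Cd3g and Cd79a had 0 to 3 reads in each library. A count of 0 allows up to 3 reads, or 0.152 and 0.143 CPM, by counting error alone. None of the 6 neutrophil genes met the rule.

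The 2 saline libraries were close for most genes and differed widely for few. The log2 difference between them, saline 2 over saline 1 after adding 0.1 RPKM to each, had quartiles of -0.20 and 0.08 and ran from -0.56 to 0.43 between the 5th and 95th percentile. Past 2-fold in either direction were 319 of 14012 genes (2.28%), 106 higher in saline 2 (0.756%) and 213 higher in saline 1 (1.52%). This balance depended on the scale: the counts were 142 and 182 with TMM scaling of total reads and 146 and 176 with DESeq2 scaling. The counting interval of the fold lay wholly past 2-fold for 51 of the 106 and 99 of the 213. Of the 106 genes, 80 were protein coding and 40 had a mean under 1 RPKM, and of the 213 genes, 193 and 63. Genes with fewer than 50% of reads placed at 1 location were 33.0% of the 106 and 23.9% of the 213, against 12.2% of all genes. By level, 6.67% of the 30 genes over 1000 RPKM were past 2-fold (these were mt-Nd4l and Gm10222), then 0.857%, 1.28%, 2.27% and 4.15% down to the class under 1 RPKM.

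**Figure D4:**
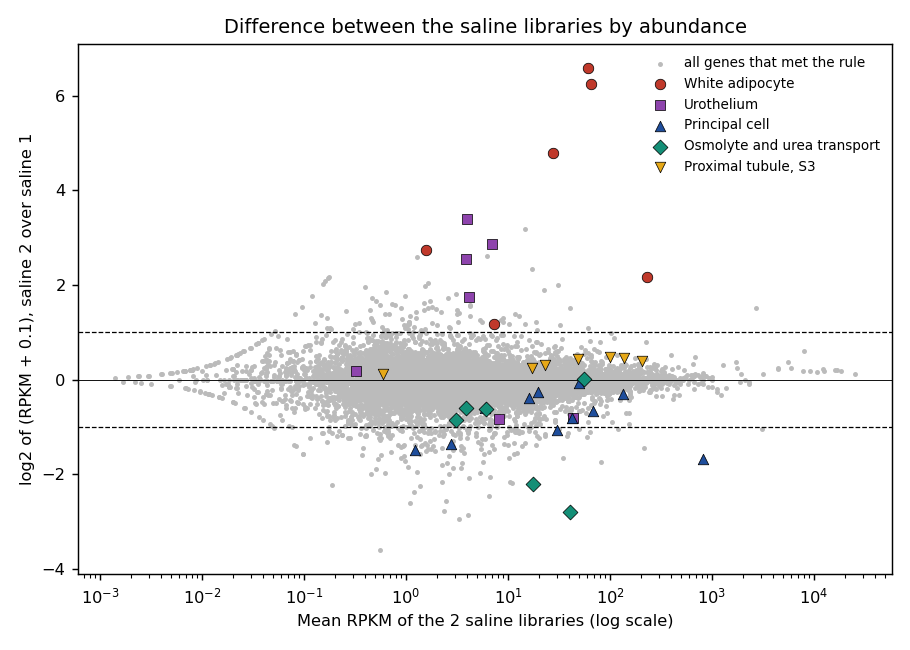
Log2 difference between the saline libraries (vertical axis, saline 2 over saline 1, 0.1 RPKM added) against mean RPKM (horizontal axis, log scale) for all 14012 genes, with 5 lists in colour and dashed lines at 2-fold. White adipocyte genes lie from 1.18 to 6.59, the 7 S3 genes between 0.11 and 0.48, and all 11 principal cell genes below 0.

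Fat cell genes had the largest differences, all of them higher in saline 2. Among genes with a mean of at least 1 RPKM, Cfd, the complement factor adipsin (GRCm38, chromosome 10, 79890853 to 79892656), had 1.16 and 121 RPKM on 21 and 2336 reads, 104-fold (68.1 to 169) higher in saline 2. Car3, a carbonic anhydrase of fat and muscle, had 1.59 and 129 RPKM, and Thrsp, a regulator of lipid synthesis, had 1.83 and 53.5 RPKM. The fatty acid binding protein Fabp4 was already abundant in saline 1 and had 82.9 and 372 RPKM, and the lipid droplet protein Plin4 had 0.336 and 2.82 RPKM. All 6 measured white adipocyte genes of 11 listed were past 2-fold, as were 0.756% of all 14012 genes in this direction. Their sum was 92.2 and 689 RPKM, of which Fabp4 made up 89.9% and 54.1%. Without Fabp4 the sum was 9.33 and 316 RPKM. Of the 5 brown adipocyte genes 1 met the rule, Cox8b with 12.4 and 49.6 RPKM. The lipid synthesis genes Fasn and Acaca, which fat cells share with other cells, had 9.44 and 35.5 RPKM and 2.35 and 6.097 RPKM. All 6 of their list were higher in saline 2, against 37.2% of all genes, with a median log2 difference of 0.66. Pdk4, a kinase that spares glucose, had 5.59 and 28.8 RPKM. The part of fat tissue in these differences was not tested.

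Urothelial genes were of both kinds. The uroplakins, membrane proteins of the bladder and pelvis lining, had 0.603 and 7.31 RPKM (Upk1b), 1.61 and 12.3 RPKM (Upk3a) and 1.05 and 6.61 RPKM (Upk1a), and Krt19 had 1.84 and 6.41 RPKM. Psca and Upk3b, which are not limited to urothelium, went the other way with 55.9 and 31.6 RPKM and 10.4 and 5.78 RPKM. Whether Krt19 and the other genes of the list are limited to urothelium was not tested. Of 12 listed genes 7 met the rule, and 4 of them were past 2-fold and higher in saline 2. Over all 14012 genes this share was 0.756%. The 7 genes had a median log2 difference of 1.75. Their sum was 71.7 and 70.3 RPKM, and with at least 100 reads in both libraries the median was -0.83, since Psca and Upk3b were then the only genes of the list. Sprr1a, a protein of stratified epithelia, had 2.84 and 26.5 RPKM, and the epithelial chemokine Ccl28 had 1.66 and 10.7 RPKM. Amy1, an amylase, had 0.295 and 2.27 RPKM.

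Genes that were higher in saline 1 were led by Fcgbp, a mucus protein, with 5.94 and 0.682 RPKM, 8.71-fold (7.35 to 10.4) higher. Cldn11, a tight junction claudin, had 7.25 and 0.906 RPKM, and the neuropeptide Y receptor Npy1r had 4.21 and 0.524 RPKM. The matrix proteins Vcan (versican) and Tnn (tenascin N) had 1.95 and 0.234 RPKM and 17.04 and 3.72 RPKM. Among the 12 largest were also Akr1b3 and Slc14a2, described with the inner medulla, Gem with 11.1 and 1.95 RPKM, Muc20 with 18.1 and 3.89 RPKM, Prss35 with 2.33 and 0.414 RPKM and Rtn1 with 2.08 and 0.322 RPKM. Saline 1 was the higher library for the principal cell, thin limb and osmolyte lists as well. The labels do not say which zones of the kidney each piece held, and the part of zones in these differences was not tested.

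**Figure D5:**
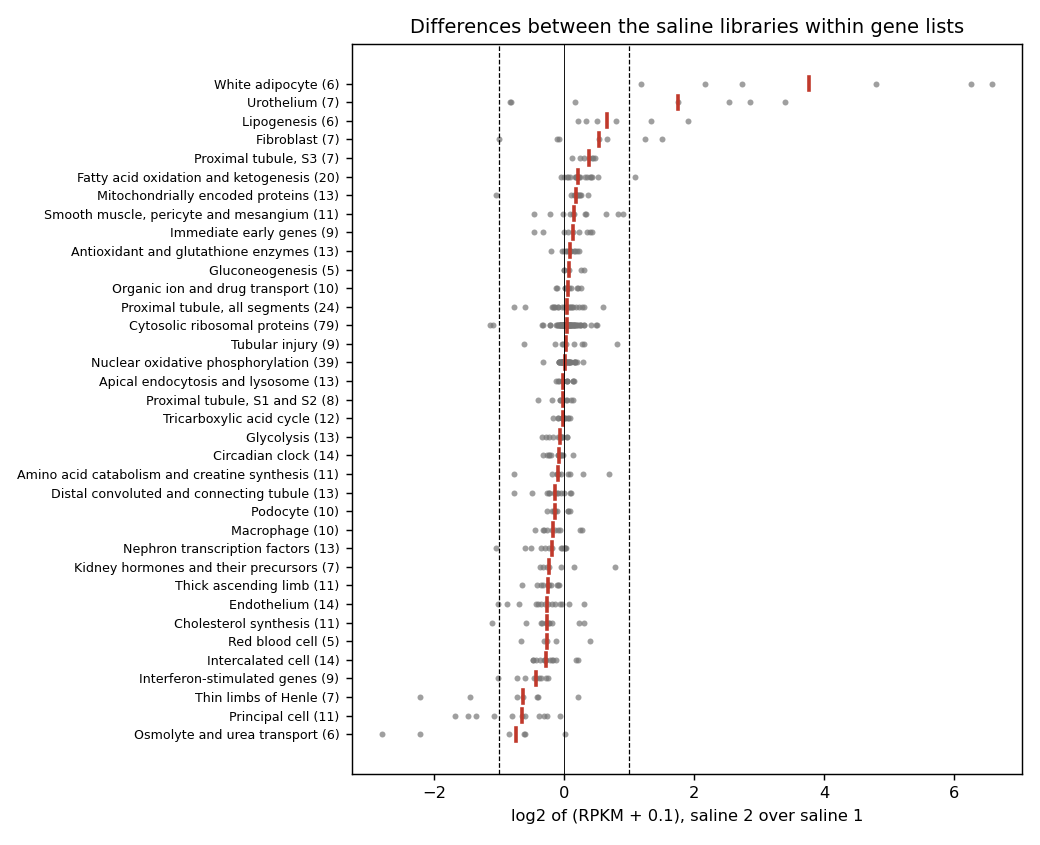
Log2 difference of each measured gene (grey points, saline 2 over saline 1, 0.1 RPKM added) in lists with at least 5 measured genes, ordered by their median (red bar), with dashed lines at 2-fold. The white adipocyte and urothelium lists have the highest medians, 3.77 and 1.75, and the osmolyte, principal cell and thin limb lists the lowest, -0.74, -0.66 and -0.64.

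Apart from the fat cell genes, markers of other tissues around the kidney were low. Of 8 adrenal cortex genes 1 met the rule, Star with 0.784 and 0.377 RPKM, and no skeletal muscle gene did. Of 6 liver genes 3 met it, with Serpina1a, of a multigene family, at 17.1 and 16 RPKM, Ttr at 8.96 and 20.4 RPKM and Alb at 5.35 and 7.03 RPKM. Of 5 lymphatic endothelium genes 4 met it, led by Pdpn at 3.92 and 5.04 RPKM, and Ccl21a was higher in saline 2 at 2.103 and 6.36 RPKM.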

How the data were processed

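A piece of kidney per sample was stored in RNAlater and sent to a company for RNA extraction and sequencing with Illumina libraries, per the labels' protocols. STAR 2.5.2b, DESeq2 and the build GRCm38 are named in the submitters' processing notes, which give none of them a role. No source used here names the read counter, its annotation or strand setting, or a selection of polyadenylated RNA. Each deposited table gives raw counts of reads per gene (total, unique, in exons, in introns), per the file headers, and total reads were the sum of exon and intron reads for 100% of genes. The RPKM values are the authors', and exon reads divided by exon length and by the library's total of gene reads gave them back for 99.6% of genes with exons (relative tolerance 0.0001). Genes without exons have an RPKM from gene reads and were left out.

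Groups were taken from the labels. The 2 immune complex libraries and the authors' table of comparisons were not used here. The genes and the 47 lists (559 entries, all found in the tables, some through older symbols) were chosen with earlier results of these data known, and the classes of the first 100 genes after seeing the ranking. Genes were named by a rule: the 30 highest by mean RPKM, the 3 highest of each list, the 12 largest differences in each direction with a mean of at least 1 RPKM, the 4 largest differences of lists with a median of at least 0.5 either way, genes at the edge of the read minimum, the 5 genes in each direction under the read minimum in one library only, and a few nephron and injury markers. A few genes that this rule selects, and one promoter motif searched, are left unreported here, and further genes that a count or a list called for (such as Bsnd, Gapdh, Epo, Slc7a13, Slco1a1, Krt5 and Upk2) were chosen after their values were seen.

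Differences are log2 of (RPKM + 0.1) of saline 2 over saline 1, with 2-fold as the limit. Folds are ratios of RPKM without the added value, with 95% exact Clopper-Pearson intervals from exon reads; without molecular identifiers, copies of 1 molecule can be counted more than once. Alternatives used pseudocounts of 0.01 and 1, read minimums of 0 and 100, CPM scaled with edgeR 4.0.16 (TMM) and DESeq2 1.42.0 in R 4.3.3, and unique reads. The scaling script was tested on simulated data. Promoters and transcripts come from RefSeq (GRCm38.p6) and GENCODE M21; 13906 of the 14012 genes lay at their M21 place.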

Additional observations from a re-analysis of the deposited data

Results flagged for a closer look

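Signals outside the ranked genes came from genes that the rule left out. Among genes without exons, mmu-mir-6236 had a mean of 5436 RPKM from 13868 and 13250 reads over 123 bases. Gm26924 and mt-Rnr2, a mitochondrial ribosomal RNA, had 1084 and 1365 RPKM and 789 and 940 RPKM.

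Fat cell genes under 20 reads in saline 1 had many reads in saline 2. The lipid droplet genes Cidec and Plin1 had 11 and 681 and 4 and 517 reads, and the hormone adiponectin, Adipoq, had 3 and 527 reads. The brown fat genes Ucp1, the uncoupling protein of heat production, and Cidea had 1 and 435 and 3 and 294 reads. The ratio of saline 2 to saline 1, with its counting interval, was 89.6-fold (43.3 to 224) for Cidec and 108-fold (41.8 to 397) for Plin1. With 1 to 3 reads in saline 1, it was 164-fold (55.8 to 798) for Adipoq, 409-fold (72.9 to 16173) for Ucp1 and 134-fold (36.8 to 1114) for Cidea. In the other direction the 5 genes with the most reads were Celf3 with 106 and 19, Faim2 with 91 and 19, the water channel Aqp5 with 70 and 16, Fam167a with 63 and 13 and Meox2 with 58 and 19. The basal keratin Krt5 and the uroplakin Upk2, with 8 and 159 and 9 and 151 reads, add to the urothelial genes that were higher in saline 2. No cause of these differences was tested.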

How the results depend on the processing

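No paired analysis was possible because only 1 group, saline, is described. The shares depended on the scale. Against 31.2%, 51.6% and 75.4% of the summed RPKM in the first 10, 100 and 1000 genes, exon CPM gave 16.0%, 31.7% and 59.0%, total CPM 14.8%, 31.2% and 58.2%, and RPKM without the mitochondrially encoded genes 12.8%, 30.2% and 64.1%. The mitochondrially encoded share of 32.0% was 14.4% by exon reads and 13.3% by total reads, and the proximal tubule share of 7.00% was 5.87% by total reads and 10.3% without the mitochondrially encoded genes. Leaving out 1 library gave 29.8% to 32.7%, 50.02% to 53.1%, 74.4% to 76.6%, 30.9% to 33.1% and 6.51% to 7.49% for these 5 shares. The counts past 2-fold, 106 higher in saline 2 and 213 higher in saline 1, were 218 and 329 with a pseudocount of 0.01, 41 and 84 with 1, 532 and 557 with no read minimum, and 33 and 102 with at least 100 reads. The urothelium median of 1.75 was 1.39 with a pseudocount of 1 and 2.42 with no read minimum, and it turned to -0.83 with at least 100 reads, where only Psca and Upk3b remained by construction. The white adipocyte median of 3.77 was 3.21, 5.52 and 1.67 in that order. The last value leaves out Cfd, Car3, Thrsp and Plin4 by construction, since they had 21 to 48 reads in saline 1. Scaling total reads with TMM and DESeq2 gave counts past 2-fold of 142 and 182, and of 146 and 176. With unique reads these counts were within 1.5 times the reported ones. Of the other values, 602 moved by less than 1 SD and 142 by more, with the SD taken between the 2 libraries for a share and over all genes (0.356) for a log2 difference. Of these values 12 changed sign: 10 had a reported log2 value within 0.06 of 0, and with no read minimum the medians of adrenal cortex and mesothelium went from -0.89 to 0.28 and from -0.83 to 0.044. TMM and DESeq2 scaling put the median of all genes at -0.0095 and 0.0025, so neither moved it by over 0.1. Genes of few exon reads have wide intervals, and differences near 2-fold in genes under 1 RPKM are not resolved at this depth.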

Other observations

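Other lists described the state of the 2 saline kidneys. The 9 of 11 measured tubular injury genes summed to 1234 and 1249.7 RPKM, of which osteopontin, Spp1, at 1009 and 999.6 RPKM, made up most, with keratin Krt8 at 67.4 and 66.2 RPKM and Clu at 50.8 and 52.1 RPKM. Havcr1, the kidney injury molecule of proximal tubule, had 45.96 and 80.5 RPKM, while Lcn2, an injury marker of distal tubule, had 2.32 and 2.09 RPKM. All 9 interferon-stimulated genes were lower in saline 2, as were 61.8% of all 14012 genes, with a median log2 difference of -0.44. Bst2 led them at 28.3 and 23.4 RPKM, and Ifit1, at 2.39 and 1.13 RPKM, was past 2-fold.

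Of 15 clock genes 14 were measured, and 13 of those were lower in saline 2, against 61.8% of all genes, with none past 2-fold. With TMM and DESeq2 scaling of total reads, 9 and 8 of the 14 were lower, against 52.1% and 49.5% of all genes. The clock output genes Dbp and Tef had 38.4 and 30.7 RPKM and 33.1 and 31.8 RPKM, and Nr1d2 had 20.6 and 19.7 RPKM. The 13 of 14 measured nephron transcription factors were led by Hnf4a of proximal tubule at 132 and 131 RPKM, and Pax2 was past 2-fold at 16.7 and 7.95 RPKM. Cholesterol synthesis genes summed to 240.1 and 241 RPKM, led by Hmgcs1 at 84.8 and 99.6 RPKM and Cyp51 at 50.2 and 61.8 RPKM. Immediate early genes, which tissue handling can induce, summed to 83.4 and 90.9 RPKM over 9 of 11 genes, led by Dusp1 at 22.4 and 22.4 RPKM.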
